A study of Mus musculus with 24 samples.

Results

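Among the 24 brain libraries of the series, 6 had a sum of FPKM over all genes above 320000, and these 6 libraries were chosen by that sum and compared with the other 18. FPKM gives the fragments on a gene relative to its length in kilobases and to a total for the library. Because the 6 libraries were selected on the expression values themselves, every difference in expression between them and the 18 is given as a description and carries no test. The lowest sum above the threshold was 338334, and the highest sum below it was 298301, so that no library lay near the threshold.

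Messenger RNA, purified on poly-T beads, was sequenced from brain hemispheres of young adult male wild-type C57BL/6J mice. The 4 groups, each of 6 mice, were vehicle (0.9% saline), angiotensin II at 0.7 mg/kg/d, vehicle + amnion epithelial cells, and angiotensin II + amnion epithelial cells, with infusion by osmotic minipump for 2 weeks. Angiotensin II is a peptide that raises blood pressure, and amnion epithelial cells are human cells of the inner layer of the fetal sac, here injected intravenously. No allele or transgene distinguished the groups, and the tissue was the whole hemisphere with its neurons, glia and vessels.

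A gene's FPKM depends on more than its transcription. Fragments per kilobase are shared out within a library, so that a library with more of its fragments on short transcripts has a larger sum, whatever its depth. Recovery of a transcript in a poly-A library also varies with its length and base composition, and mitochondrial and ribosomal protein transcripts are short and abundant in brain, where neurons carry a heavy load of oxidative metabolism.

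The sums were 338334, 344156 and 348597 (lowest, median and highest) in the 6 libraries and 277116, 285679.9 and 298301 in the 18. They formed 2 separate ranges within every treatment group. The vehicle group held 2 of the 6 libraries, the angiotensin II group 1, the vehicle + amnion epithelial cells group 1 and the angiotensin II + amnion epithelial cells group 2. All 6 had replicate number 5 or 6, which 8 libraries carry, and 0 of the 16 libraries numbered 1 to 4 were among them. The labels give no date or batch of extraction or sequencing, so the set and any such step cannot be told apart.

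Depth did not separate the sets. The recovered number of fragments was 16536449, 18543194 and 25308700.0 in the 6 libraries and 16645396, 18232220.0 and 22464979 in the 18. The means were 19553695 ± 3285925 (SD, n = 6) and 18630830 ± 1394136 (SD, n = 18), and their difference of 922865 did not pass a two-sided exact permutation test (p = 0.348). At an equal depth of 16536449 fragments, the expected number of genes with at least 1 fragment was 22851, 23256 and 24010.0 in the 6 libraries and 24520.0, 24656 and 25048 in the 18. At that depth all 6 libraries held fewer detected genes than any of the 18, whereas the counts at full depth overlapped (22964, 23658 and 25056 against 24569, 24958 and 25363). The 100 genes with the most fragments took 20, 20.4 and 20.5% of fragments in the 6 and 17.1, 17.8 and 18.2% in the 18, again without overlap.

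The sum can be split into 2 factors, the gene length under each fragment and the total by which the authors divided. The harmonic mean length of the gene under a fragment was 2872, 2897 and 2938 bases in the 6 libraries and 3263, 3361 and 3437 bases in the 18. The sum per fragment that follows from this length was 1.16-fold higher in the 6. The authors' total was 0.994, 1.0 and 1.01 times the fragments on the listed genes in the 6 libraries and 1.03, 1.04 and 1.05 times in the 18. This second factor was 1.039-fold, and both together give the ratio of 1.205 between the mean sums. The share of fragments on genes shorter than 2000 bases was 17.7, 18.3 and 18.6% in the 6 and 13.0, 13.7 and 14.5% in the 18. The share on genes of 8000 bases or more was 16.0, 16.2 and 16.8% and 21.1, 22.3 and 23.3%. Each of these shares separated the sets completely.

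**Figure D1:**
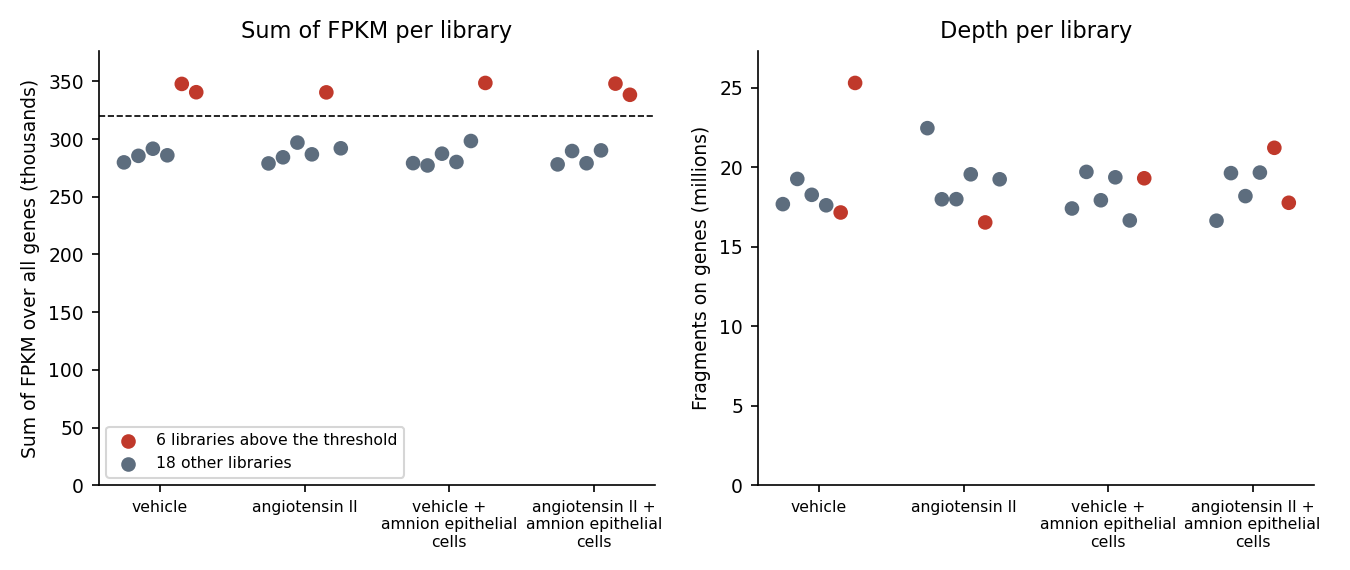
Sum of FPKM over all genes (left, in units of 1000) and recovered fragments on genes (right) for each of the 24 libraries, by treatment group; each point is 1 library, red points are the 6 libraries above the threshold of 320000 (dashed line) and grey points the other 18. The sums fall into 2 ranges within every group, whereas the depths of the 2 sets overlap.

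The mean sum of the 6 libraries exceeded that of the 18 by 58371 FPKM. Protein-coding genes of the nuclear genome that lie outside the ribosomal protein and respiratory chain lists made most of it. Those of 2000 to 4000 bases gave 16471 FPKM, which is 28.2% of the difference, and those of 1000 to 2000 bases gave 15228 FPKM, or 26.1%. Those of 300 to 1000 bases added 9.01%. The longest of these genes, of 8000 bases or more, were lower in the 6 libraries by 4009 FPKM in sum.

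A few small gene families also carried much of the difference. The 13 protein-coding genes of the mitochondrial genome gave 18.3% of it, the 2 mitochondrial ribosomal RNAs 5.39% and the 22 mitochondrial transfer RNAs 1.78%. The 82 cytosolic ribosomal protein genes gave 9.42% and the 78 listed nuclear genes for respiratory chain subunits 6.93%. Without any mitochondrial gene the mean sum of the 6 libraries was still 1.18-fold that of the 18.

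**Figure D2:**
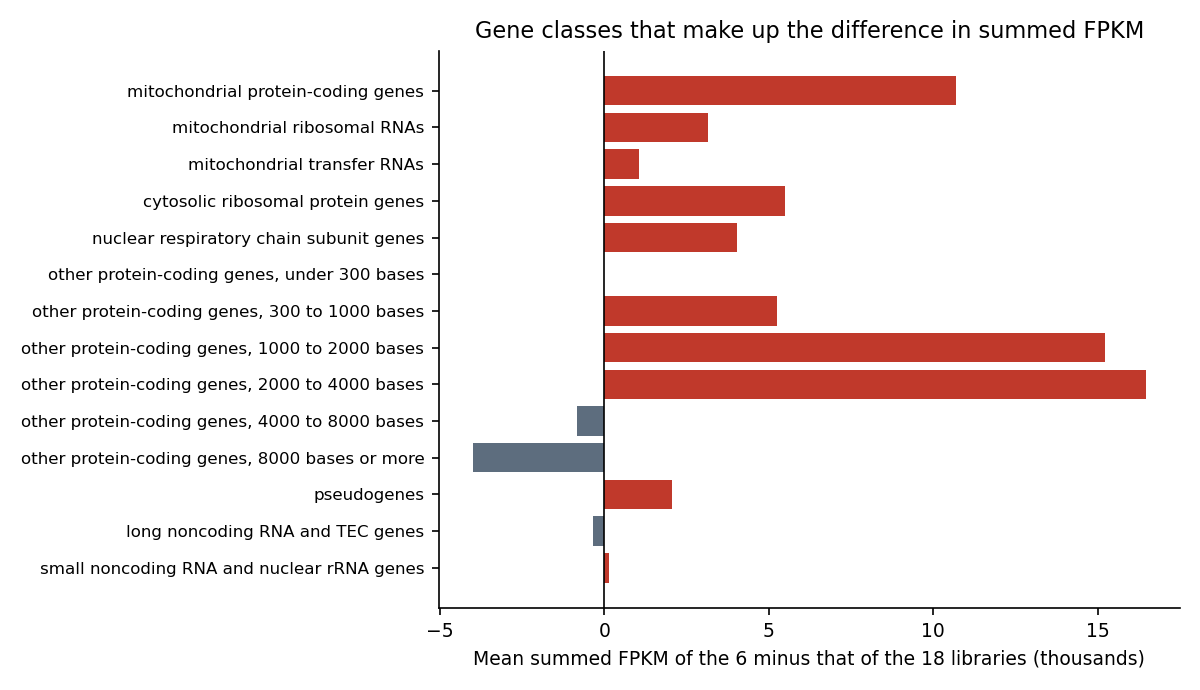
Difference in mean summed FPKM between the 6 and the 18 libraries (horizontal axis, in units of 1000 FPKM) for 14 classes of genes; red bars are higher in the 6, grey bars higher in the 18. Nuclear protein-coding genes of 1000 to 4000 bases and the mitochondrial protein-coding genes have the longest bars, and genes of 8000 bases or more point the other way.

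The set divided a large part of the transcriptome. In the limma fit with treatment as covariate, 6082 of 27286 genes tested were higher (22.3%) and 8454 lower (31.0%) in the 6 libraries at an adjusted p-value under 0.05. These counts restate the choice of the libraries and are read only as a measure of extent. All 6 values lay above all 18 for 3060 genes (11.2%) and below them for 4442 genes (16.3%). Among the 13649 genes with a mean of at least 1 FPKM, where most listed genes lie, these shares were 22.1% and 28.9%, and a count in a list near them is no result about the list. Among the same 13649 genes, the log2 difference exceeded 1 for 75 genes and lay below -1 for 643, and it exceeded 2 for 2 genes and lay below -2 for 193. Over all genes tested, the counts were 248 and 1574, and 14 and 359. Because the mean is taken over 24 libraries, a gene near 0 in the 6 passes it through the 18 more easily than the reverse, so this filter favours negative differences. All differences are given as the mean of log2(FPKM + 0.1) of the 6 libraries minus that of the 18, adjusted for treatment. When each library was scaled to an equal sum of FPKM, the median of all genes moved by -0.15, from -0.07 to -0.23, and the higher and lower genes then numbered 3212 and 11467, so a difference between 0 and about 0.27 can turn sign on that scale.

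Gene length went with the differences, most clearly among expressed genes. Over genes with a mean of at least 1 FPKM, the median difference was 0.50 for the 962 genes of 300 to 1000 bases, 0.46 for the 1613 genes of 1000 to 2000 bases and 0.16 for the 3935 genes of 2000 to 4000 bases. It was -0.20 for the 4663 genes of 4000 to 8000 bases and -0.50 for the 2153 genes of 8000 bases or more. With equal sums of FPKM, the medians of these 5 classes were 0.24, 0.19, -0.10, -0.47 and -0.76, so that the class of 2000 to 4000 bases turned sign. Of the longest class, 70.7% of genes were lower in all 6 libraries than in any of the 18 and 3.16% were higher in all. Over all genes tested, low ones included, the medians of the 5 classes were 0.00, 0.09, 0.01, -0.17 and -0.47, so that the order among the shorter classes was not seen there. For the 323 genes under 300 bases with a mean of at least 1 FPKM, the median was -0.41, with 5 genes above and 22 below without overlap.

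Base composition went with the differences as well. Over 12062 nuclear protein-coding genes with a mean of at least 1 FPKM, the median was -0.36 in the quintile of lowest GC content of the longest coding transcript (up to 44.8% GC), -0.37, -0.13 and 0.21 in the next 3, and 0.38 in the highest (from 56.4% GC), of which the value of 0.21 turned to -0.06 with equal sums of FPKM. In the highest quintile 1212 genes lay above and 95 below without overlap, and in the lowest 119 lay above and 1162 below. The coding sequence and the 3′ untranslated region (UTR) showed the same order as the whole length. From the shortest to the longest quintile of coding bases, medians ran from 0.39 to -0.46, and from the shortest to the longest quintile of 3′ UTR bases from 0.36 to -0.44.

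Length and GC content were not interchangeable. Among the shortest quintile of genes, the median went from 0.11 at the lowest GC to 0.58 at the highest, and among the longest quintile it ran from -0.50 to 0.02. Among the genes of the highest GC quintile, all 5 length quintiles had a median at or above 0.02. Coding length and 3′ UTR length likewise added to each other, with medians of 0.63 where both were shortest and -0.61 where both were longest. Across these genes, Spearman's rho with the difference was -0.63 for length, 0.54 for GC content, -0.50 for coding bases, -0.52 for 3′ UTR bases, -0.13 for 5′ UTR bases, -0.42 for the number of exons and 0.32 for the mean FPKM. Genes share libraries and are not independent, so these values are descriptions. The length entered the sum that chose the libraries, whereas GC content did not enter it directly.

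**Figure D3:**
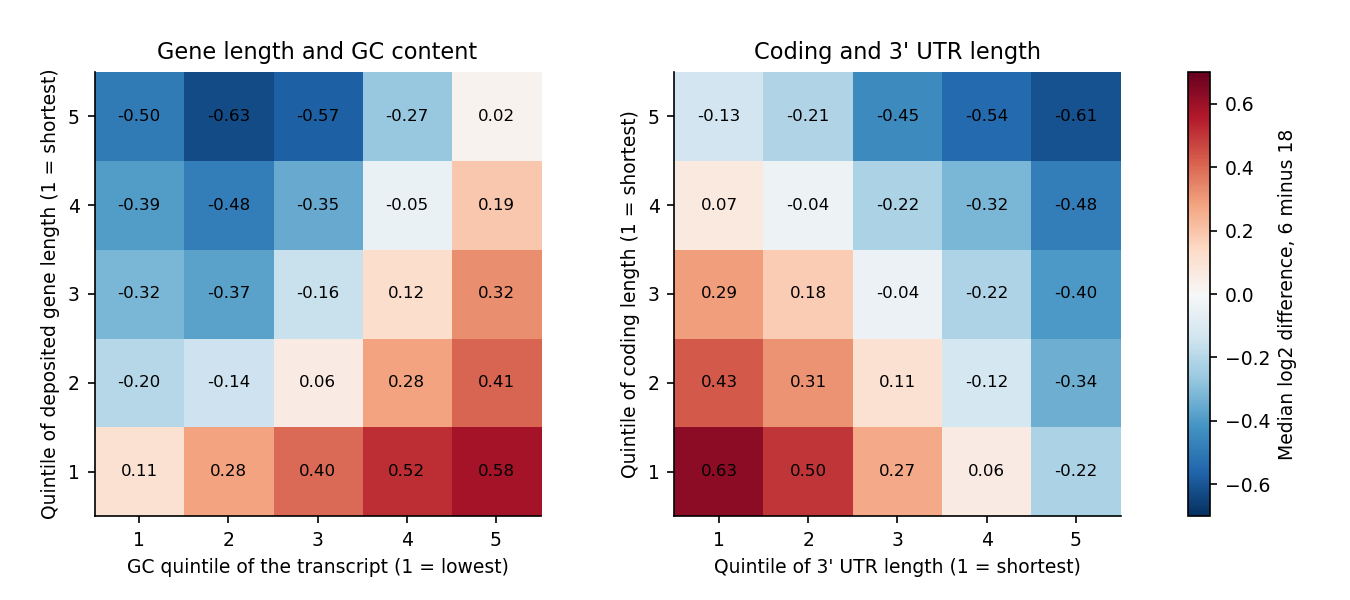
Median log2 difference (6 minus 18 libraries, colour and printed value) of nuclear protein-coding genes by quintile of gene length and of transcript GC content (left) and by quintile of coding length and of 3′ UTR length (right). Short genes of high GC reach 0.58, long genes of low to middle GC reach -0.63, and the corner of long coding sequence and long 3′ UTR reaches -0.61.

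Biotypes other than protein-coding differed among themselves. Of the 12075 protein-coding genes with a mean of at least 1 FPKM, 2885 lay above and 3749 below without overlap, with a median of -0.05 that became 0.02 with median ratio scaling. Small RNA genes, whose products lack a long poly-A tail and are not the targets of a poly-A library, had the lowest medians, at -1.0 for 95 miRNA genes, -0.97 for 62 snoRNA genes and -1.11 for 36 snRNA genes. Their ranges overlapped in most cases, with 4, 6 and 3 genes below and 0 above in the 3 classes. The 268 lincRNA genes had a median of 0.06 and the 215 antisense genes one of -0.04, both with more genes below than above without overlap (39 against 17 and 39 against 9), medians that turned to -0.20 with equal sums and to 0.02 with median ratio scaling. The 466 processed pseudogenes, many of them copies of ribosomal protein and metabolic genes, had a median of 0.42, with 60 genes above and 34 below. Over all 2125 processed pseudogenes tested, the median was -0.05, with 62 above and 64 below. Reads of such copies and of their parent genes can be exchanged in counting, so values of both are uncertain.

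The mitochondrial genome encodes 13 subunits of the respiratory chain, 2 ribosomal RNAs and 22 transfer RNAs, all transcribed as long precursors. Fragments on it took 6.17, 6.67 and 6.85% of each library in the 6 and 4.79, 5.45 and 5.75% in the 18. The transcript of mt-Nd1, a complex I subunit, was at 9809, 10288 and 10765 FPKM (lowest, median and highest) in the 6 libraries and 6173, 7232 and 8161 FPKM in the 18, a difference of 0.52 ± 0.08 (SE). That of mt-Cytb, the complex III cytochrome, was at 9472, 10276 and 10445 FPKM in the 6 and 6539, 7355 and 7789 FPKM in the 18, a difference of 0.49 ± 0.08 (SE). That of mt-Nd4, of complex I, was at 5261, 5521 and 5732 FPKM in the 6 and 2916, 3393 and 3888 FPKM in the 18, a difference of 0.72 ± 0.06 (SE). These 3 genes held the largest single shares of the difference in sums, at 5.37%, 4.94% and 3.69%, and none overlapped between the sets.

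The mitochondrial genes did not all differ in the same direction. The complex I genes mt-Nd2 and mt-Nd6 differed by 0.46 and 0.56, and the ribosomal RNAs mt-Rnr1 and mt-Rnr2 by 0.70 and 0.58, all above without overlap. The transcript of mt-Co1, the catalytic subunit of complex IV, was at 8654, 9207 and 9826 FPKM in the 6 and 8911, 9659 and 10076 FPKM in the 18, and these ranges overlapped. The levels of mt-Nd5 averaged 1135 ± 53.5 FPKM (SD, n = 6) against 1666 ± 112 FPKM (SD, n = 18), below without overlap, a difference of -0.55. The short mt-Nd4l, whose reading frame overlaps that of mt-Nd4, was at 9.39, 18.4 and 22.7 FPKM in the 6 and 25.1, 36.1 and 66.1 FPKM in the 18. The values of the 2 genes thus differed in opposite directions, by -1.07 and 0.72. Their overlap is small, from base 10167 to base 10173 of the mitochondrial genome, and reads there cannot be assigned to either. The gene mt-Nd4l has only 297 bases, and the part of fragment counting on so short a gene was not tested. Of the 13 genes, 5 were above and 2 below without overlap, and the median was 0.49.

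On the deposited scale, ribosomal protein genes were higher. They encode the protein part of the cytosolic ribosome and have short transcripts, of median 1737 bases in the deposited lengths and 51.7% GC. All 82 members had a positive difference, 72 of them above without overlap and 0 below, with a median of 0.72 (0.45 with equal sums of FPKM). Together they summed to 13686 to 14934 FPKM in the 6 libraries and 7915 to 9920.1 FPKM in the 18. Rplp1, an acidic protein of the ribosomal stalk, was at 1341, 1406 and 1492 FPKM in the 6 and 734, 843 and 961 FPKM in the 18. Rps15, of the small subunit, was at 656, 689 and 727 FPKM in the 6 and 359, 399.8 and 470.0 FPKM in the 18. Rps27, also of the small subunit, had the largest difference of the list, 1.03 ± 0.22 (SE), and its 18 values spread from 32.8 to 132 FPKM. Rpl36al, the member with the smallest difference, was at or below 0.774 FPKM in every library. Each of 80 members fell in a class of nuclear protein-coding genes of the same quintiles of length and GC content. The median of these class medians over the members was 0.34. Where genes of the same length and GC content are named below, these broad quintiles are meant.

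The nuclear genes for respiratory chain subunits, which complete the complexes of the mitochondrial inner membrane, were mostly higher as well. Of 78 genes tested of 85 in the list, 71 were above and 3 below without overlap, with a median of 0.69 against 0.40 for genes of the same length and GC content. Cox8a, a small subunit of complex IV, was at 1032, 1138 and 1183 FPKM in the 6 and 611, 671 and 792 FPKM in the 18, and Cox6a1, of the same complex, at 750.2, 852 and 930.0 FPKM in the 6 and 444, 498 and 579 FPKM in the 18. Ndufa12, of complex I, had the largest difference, 1.02, although its ranges overlapped, with 42.1 FPKM at the lowest of the 6 and 57.5 FPKM at the highest of the 18. Ndufs1, which encodes the largest complex I subunit, went the other way. It was at 10.8, 12 and 12.3 FPKM in the 6 and 14.6, 15.8 and 17.5 FPKM in the 18. Its deposited length was 8086 bases, but its longest coding transcript has 2181 coding and 238 3′ UTR bases. The 3 members below had a median length of 4126 bases and a median of 45.1% GC, against 1587 bases and 51.0% GC for the 71 above.

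Other housekeeping lists followed with smaller medians. Among 32 proteasome subunits, which form the barrel and cap that degrade ubiquitin-tagged proteins, 24 were above and 1 below, with a median of 0.42. The catalytic subunit Psmb5 was at 139, 151 and 166 FPKM in the 6 and 83, 92.7 and 103 FPKM in the 18. The cap subunit Psmd1 was at 8.54, 9.26 and 10.2 FPKM in the 6 and 14.7, 16.0 and 17.6 FPKM in the 18. Its deposited length was 7265 bases, but its longest coding transcript has 2859 coding and 82 3′ UTR bases. Of 18 Sm and LSm genes, whose products form the rings on spliceosomal RNAs, 15 were above and 1 below, with a median of 0.58. Snrpn, the Sm protein prominent in neurons, was at 244, 262 and 289 FPKM in the 6 and 179, 187 and 204 FPKM in the 18, and Lsm11, a long transcript for a protein of histone mRNA processing, at 3.09, 3.76 and 4.50 FPKM in the 6 and 5.32, 6.11 and 6.71 FPKM in the 18. Of 15 glycolytic enzymes, 11 were above and 2 below, with a median of 0.41. Aldoc, the aldolase of astrocytes, was at 488, 508 and 542 FPKM in the 6 and 365, 385 and 428 FPKM in the 18. Pfkp, a phosphofructokinase, was at 15.5, 16.5 and 17.8 FPKM in the 6 and 22.8, 23.6 and 25.4 FPKM in the 18. Its deposited length was 13401 bases, but its longest coding transcript has 2352 coding and 1695 3′ UTR bases. Gapdh, often used as a reference gene, ranged from 3.93 to 72.4 FPKM in the 6 and from 2.83 to 59.1 FPKM in the 18. These ranges overlap almost wholly. Gapdh has many near-identical pseudogene copies, so its value is uncertain. With equal sums of FPKM, the medians of the proteasome, Sm and LSm, and glycolytic lists were 0.15, 0.31 and 0.14.

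Lists of long genes lay on the other side. Alpha subunits of voltage-gated channels form the pores that carry the currents of neuronal firing and have a median length of 11282 bases in the list. Of 24 genes, 17 were below and 1 above without overlap. The median was -0.65, against -0.50 for genes of the same quintiles of length and GC content. The longest quintile runs from 7549 to 41324 bases. Length is thus not matched within it, here and for the other lists of long genes. Cacna1d, an L-type calcium channel, was at 1.11, 1.31 and 1.49 FPKM in the 6 and 3.02, 3.43 and 3.72 FPKM in the 18. The axonal sodium channel gene Scn1a averaged 5.98 ± 0.418 FPKM (SD, n = 6) against 11.6 ± 1.35 FPKM (SD, n = 18), a difference of -0.94. Kcnc1, a fast delayed rectifier, was at 30.2, 32.4 and 34.7 FPKM in the 6 and 34.6, 39.2 and 43.1 FPKM in the 18, and these ranges overlapped at their ends.

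Synaptic scaffold and adhesion genes were split. They encode the proteins that align the release site with the receptors across the cleft. Of 28 genes, 18 were below and 8 above without overlap. The 18 below had a median of 48.6% GC and a length of 12610 bases, and the 8 above had 60.1% GC and 8861 bases. Dlgap3, of the postsynaptic density, was at 128, 149 and 160.0 FPKM in the 6 and 79.0, 88.8 and 102 FPKM in the 18, whereas its paralog Dlgap2 averaged 2.15 ± 0.231 FPKM (SD, n = 6) against 4.78 ± 0.407 FPKM (SD, n = 18). Nlgn2, the neuroligin of inhibitory synapses, was at 76.4, 79.0 and 84.1 FPKM in the 6 and 58.5, 60.9 and 65.6 FPKM in the 18, whereas Nlgn1, found at excitatory synapses, averaged 1.60 ± 0.125 FPKM (SD, n = 6) against 2.70 ± 0.289 FPKM (SD, n = 18). Dlg4, encoding PSD-95, differed by 0.57 and Dlg2, encoding PSD-93, by -0.76. Ank3, the ankyrin of the axon initial segment with a length of 34838 bases, was at 3.54, 3.85 and 4.28 FPKM in the 6 and 7.90, 8.65 and 10.1 FPKM in the 18. The median was -0.51 over all 28 genes, against -0.50 for genes of the same length and GC content. It was -0.65 over the 18 below and 0.29 over the 8 above.

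Large nuclear regulators and ubiquitin ligases were lower with few exceptions. Of 38 large chromatin regulators, which write, read or remodel histone and DNA marks, 31 were below and 0 above, with a median of -0.74 against -0.57 for genes of the same length and GC content. Kmt2e, a member of the KMT2 family, was at 1.68, 2.00 and 2.11 FPKM in the 6 and 5.09, 6.82 and 7.81 FPKM in the 18, a difference of -1.73 ± 0.08 (SE). The remodeller genes Chd3 and Smarca4 differed by 0.12 and 0.12, and by -0.15 and -0.15 with equal sums of FPKM. Of 12 large ubiquitin ligases, 10 were below and 0 above, with a median of -0.92 against -0.63 for genes of the same class. Herc1, with 27464 bases, was at 1.91, 2.05 and 2.27 FPKM in the 6 and 4.84, 6.03 and 6.90 FPKM in the 18, and the X-linked Huwe1 at 6.07, 6.69 and 7.22 FPKM in the 6 and 12.3, 13.1 and 15.1 FPKM in the 18. Cul9 was at 7.16, 7.99 and 8.49 FPKM in the 6 and 6.82, 7.34 and 7.74 FPKM in the 18, with overlap, and turned from 0.09 to -0.17 with equal sums.

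Most listed transcripts that stay in the nucleus were lower too. Of 9 such RNAs in the list, 6 were below and 0 above, with a median of -0.57. Their median length was 18089 bases. Of all genes of 8000 bases or more with a mean of at least 1 FPKM, 70.7% were below, with a median of -0.50. The list is thus near what genes of that length show, and a part of nuclear retention was not tested. Malat1, an abundant RNA of nuclear speckles, was at 10.4, 15.8 and 19.1 FPKM (lowest, median and highest) in the 6 libraries and 61.4, 73.0 and 103 FPKM in the 18, a difference of -2.30 ± 0.11 (SE), the lowest of all list members apart from Gh. Meg3, a maternally expressed RNA of neurons, was at 94.7, 104 and 116 FPKM in the 6 and 187, 201 and 214 FPKM in the 18, and the neuronal Snhg11 at 124, 129 and 139.6 FPKM in the 6 and 199, 211 and 224 FPKM in the 18. Mirg, from the same imprinted cluster as Meg3, was at 5.16, 6.01 and 6.88 FPKM in the 6 and 4.62, 5.10 and 6.09 FPKM in the 18, with overlap, and turned from 0.18 to -0.08 with equal sums.

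Rapidly induced genes did not separate the sets. Of 18 immediate early genes, which respond within minutes to neuronal activity, 0 were without overlap, and the median was 0.13 (-0.13 with equal sums). Egr1 was at 45.3, 61.3 and 71.1 FPKM in the 6 and 29.7, 49.9 and 66.4 FPKM in the 18, and Arc at 24.3, 48.3 and 81.5 FPKM in the 6 and 14.9, 45.5 and 65.3 FPKM in the 18. Of 14 heat shock and chaperone genes, 4 were above and 3 below, with a median of -0.05 (0.01 with median ratio scaling). Hspb1, a small heat shock protein with 61.7% GC, was at 19.9, 25.8 and 35.2 FPKM in the 6 and 8.36, 14.4 and 19.4 FPKM in the 18. Hsp90aa1, with 43.7% GC, was at 145, 156 and 161 FPKM in the 6 and 176, 195 and 232 FPKM in the 18, whereas its constitutive paralog Hsp90ab1 was at 579, 617 and 639.8 FPKM in the 6 and 497, 543 and 594 FPKM in the 18 and turned from 0.17 to -0.10 with equal sums.

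**Figure D4:**
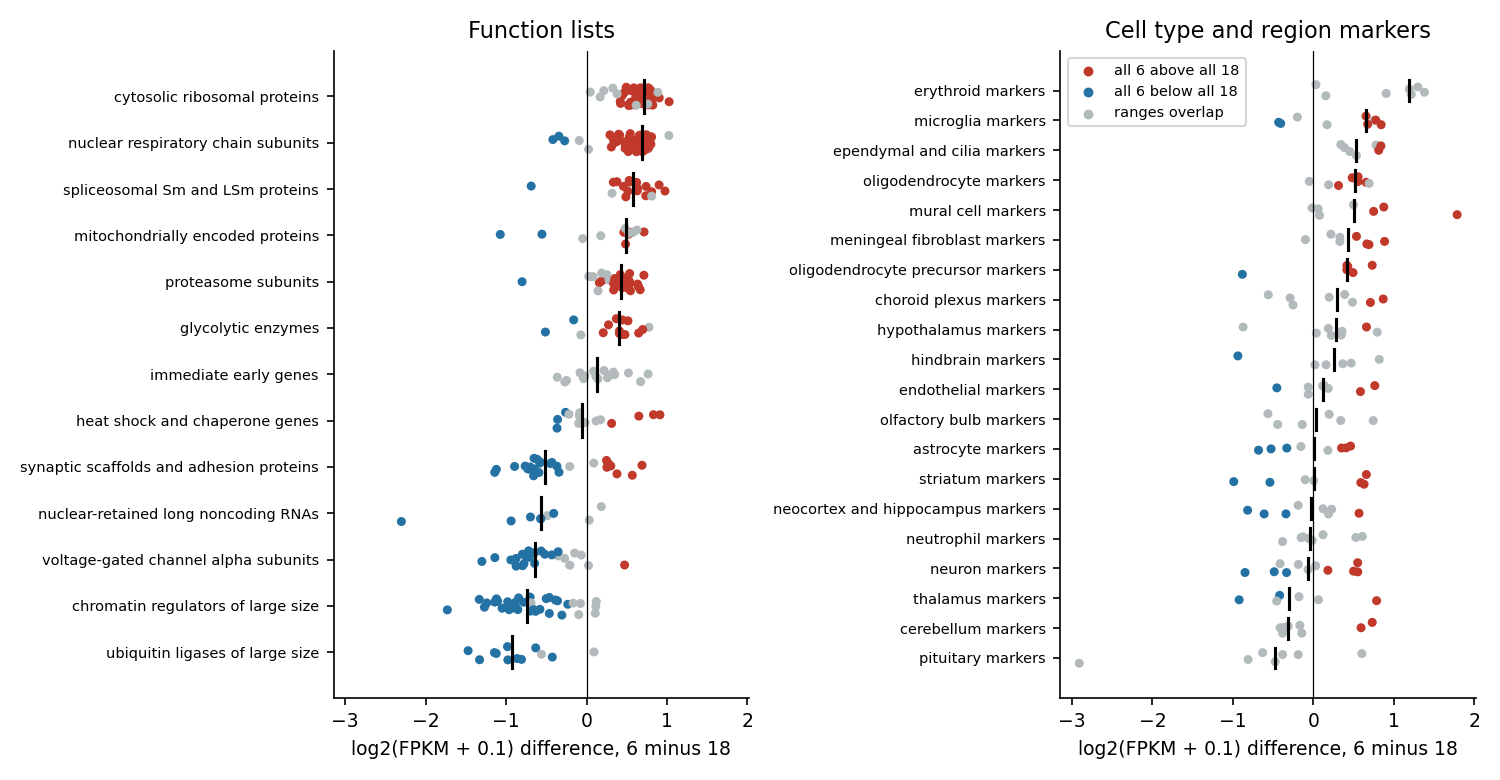
Difference of each member of 13 function lists (left) and 20 marker lists (right), 6 minus 18 libraries on the log2(FPKM + 0.1) scale; each point is 1 gene, black bars are list medians, red and blue points are genes with all 6 values above or below all 18, and grey points overlap. Ribosomal protein and respiratory chain genes lie to the right of 0, large regulators to the left, and most marker lists spread to both sides.

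The labelled tissue was checked by marker genes of brain cell types. Neuronal, astrocyte and oligodendrocyte markers were abundant in all libraries, with sums of 1315 to 1396, 884 to 977 and 1510.0 to 1829.5 FPKM in the 6 and 1158 to 1264, 769 to 852 and 1213 to 1485 FPKM in the 18. In tissue of this kind, fewer cells of a type and less RNA per cell cannot be told apart. Markers of 1 cell type often lay on both sides. Of 11 neuron markers, 4 were above and 3 below. Of all genes with a mean of at least 1 FPKM, 22.1% were above and 28.9% below. Such a split, here and in the lists that follow, is thus no result about the markers. Slc17a7, the vesicular glutamate transporter of cortical neurons, averaged 289 ± 21.1 FPKM (SD, n = 6) against 197 ± 10.6 FPKM (SD, n = 18), and Gad2, an enzyme of GABA synthesis, averaged 18.7 ± 0.818 FPKM (SD, n = 6) against 33.9 ± 1.75 FPKM (SD, n = 18). The 4 above had a median of 58.2% GC and the 3 below 45.8%. Snap25, the member of highest level, was at 245, 259 and 277 FPKM in the 6 and 271, 301 and 310.1 FPKM in the 18.

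Astrocyte and microglia markers were split as well, whereas oligodendrocyte lineage markers were mostly above. Of 8 astrocyte markers, 3 were above and 3 below, where Gfap, the intermediate filament, averaged 95.7 ± 8.37 FPKM (SD, n = 6) against 69.3 ± 4.11 FPKM (SD, n = 18) and Slc1a2, the main glutamate transporter, 75.1 ± 2.56 FPKM (SD, n = 6) against 120.4 ± 7.40 FPKM (SD, n = 18). Of 9 microglia markers, 4 were above and 2 below. C1qa, of the complement C1q complex, was at 66.7, 71.4 and 79.6 FPKM in the 6 and 34.3, 40.2 and 46.9 FPKM in the 18, with C1qb and C1qc at differences of 0.67 and 0.78, whereas the fractalkine receptor gene Cx3cr1 differed by -0.43. The 4 above had a median length of 1510 bases and 58.3% GC. Of 8 oligodendrocyte markers, 5 were above and 0 below, with a median of 0.52. Mbp, the myelin basic protein, was at 591, 709 and 725 FPKM in the 6 and 413, 466 and 509.7 FPKM in the 18, although genes of its length and GC content had a median of -0.57. Of 6 precursor markers, 5 were above, with Olig1 at 78.3, 84.0 and 94.5 FPKM in the 6 and 52.9, 61.0 and 69.4 FPKM in the 18, and Pdgfra was below at a difference of -0.88.

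Vessel and blood markers differed from list to list. Of 7 mural cell markers, 3 were above and 0 below, with sums of 117 to 134 FPKM in the 6 and 69.7 to 86.2 FPKM in the 18. Vtn, of pericytes, was at 66.3, 71.1 and 78.7 FPKM in the 6 and 37.7, 43.2 and 47.5 FPKM in the 18, Myh11, the smooth muscle myosin, differed by 0.88, and Rgs5 and Pdgfrb differed by 0.06 and 0.08 with overlap. Of 8 endothelial markers, 2 were above and 1 below, where 22.1% of all genes with a mean of at least 1 FPKM were above. The count above is thus no result about the list. Of the 8, 5 were positive and 3 negative, with a median of 0.12 (-0.14 with equal sums of FPKM). Cldn5, of the tight junctions, was at 60.9, 69.9 and 77.4 FPKM in the 6 and 31.1, 41.4 and 47.6 FPKM in the 18. Erythroid markers had the highest median of the 20 marker lists, 1.19, with 0 of 7 genes without overlap and sums of 123 to 204 FPKM in the 6 and 33.0 to 189.6 FPKM in the 18. Hbb-bs, a beta globin, was at 59.2, 76.2 and 99.0 FPKM in the 6 and 16.5, 29.3 and 97.1 FPKM in the 18. The globin genes are near-identical pairs, so their shares are uncertain, and the part of blood in any difference was not tested. Neutrophil markers, summing to 5.38 to 38.3 and 6.22 to 47.6 FPKM, had a median of -0.04 (0.00 with median ratio scaling) with 0 of 8 genes without overlap. S100a9 was at 2.10, 7.07 and 17.5 FPKM in the 6 and 2.68, 6.02 and 22.2 FPKM in the 18.

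Markers of brain surfaces and regions were read in the same way. Choroid plexus markers summed to 847 to 1136 FPKM in the 6 and 361 to 784 FPKM in the 18. Most of each sum was Ttr, their main secreted protein, at 827, 891 and 1112 FPKM in the 6 and 348, 582 and 762 FPKM in the 18. Of the 8 markers 5 were positive and 3 negative, with a median of 0.29 (0.03 with equal sums of FPKM). The 6 markers with overlap had a median of -0.03. Meningeal fibroblast markers summed to 985 to 1332 FPKM in the 6 and 619 to 762 FPKM in the 18. Nearly all of each sum was Ptgds, a prostaglandin synthase, at 963, 1068 and 1306 FPKM in the 6 and 604, 672 and 746 FPKM in the 18. Of the 8 genes 4 were above and 0 below. Of 7 ependymal markers 2 were above, with Foxj1, the regulator of motile cilia, at 7.13, 7.75 and 9.39 FPKM in the 6 and 4.57, 6.14 and 7.91 FPKM in the 18. For regions, 9 cerebellar markers had 2 above and 0 below, with Cbln1 at 80.1, 93.1 and 105 FPKM in the 6 and 43.2, 63.1 and 72.2 FPKM in the 18, Pcp2 of Purkinje cells at a difference of 0.73 and the other 7 between -0.41 and -0.14. Of 7 striatal markers 3 were above and 2 below, with Ppp1r1b, encoding DARPP-32, at 127, 147 and 168 FPKM in the 6 and 84.3, 93.2 and 111 FPKM in the 18 and Drd1 and Drd2, the 2 main dopamine receptors, at -0.54 and 0.63.

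Neocortex and hippocampus markers had 1 above and 3 below of 8, with Neurod2 at 30.6, 35.5 and 37.8 FPKM in the 6 and 27.1, 30.7 and 33.3 FPKM in the 18 and a difference of 0.23 that turned to -0.04 with equal sums. Thalamus markers had 1 above and 2 below of 6, with Ramp3 at 22.0, 24.1 and 30.7 FPKM in the 6 and 12.5, 14.9 and 17.8 FPKM in the 18. Hypothalamus markers had 1 above, with Hap1 at 74.6, 78.5 and 89.0 FPKM in the 6 and 56.8, 67.6 and 79.1 FPKM in the 18 and a difference of 0.22 that turned to -0.05 with equal sums. Hindbrain markers had 1 below, Slc6a5, the glycine transporter, at 2.30, 3.0 and 3.65 FPKM in the 6 and 4.96, 5.61 and 6.73 FPKM in the 18, and olfactory bulb markers had 0, with Th, the enzyme of dopamine synthesis, at 7.19, 7.86 and 8.51 FPKM in the 6 and 4.86, 6.38 and 7.44 FPKM in the 18. Pituitary markers summed to 3.15 to 16.9 FPKM in the 6 and 2.78 to 1579.9 FPKM in the 18, and their main member Gh, growth hormone, was at 1115 FPKM in angiotensin II replicate 4, which belongs to the 18.

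Acta2 had the largest positive difference of the eligible genes. Among genes with a mean of at least 1 FPKM and no overlap, Acta2 (chr19:34241090-34255336, minus strand), the actin of smooth muscle, was at 21.8, 25.5 and 31.6 FPKM (lowest, median and highest) in the 6 libraries and 5.58, 7.58 and 10.1 FPKM in the 18. Every one of the 6 libraries was at least 21.8 FPKM and every one of the 18 at most 10.1, a difference of 1.79 ± 0.09 (SE). Myl9, a regulatory light chain of smooth muscle myosin, was at 28.3, 30.9 and 31.9 FPKM in the 6 and 10.7, 12.5 and 15.2 FPKM in the 18, a difference of 1.26 ± 0.06 (SE). Gkn3, a gastrokine also found in arterial endothelium, was at 2.75, 4.12 and 6.12 FPKM in the 6 and 0.666, 1.31 and 2.38 FPKM in the 18, a difference of 1.48 ± 0.22 (SE). Genes of their length and GC content had medians of 0.40, 0.58 and 0.40. The 3 genes were chosen as the largest differences, so that they exceed these medians restates the choice. The other 7 of the 10 largest were noncoding or predicted genes, namely Gm44799, Gm44090, Gm38157, Gm43355, Prkag2os1, Gm42970 and Gm3235, with differences of 1.73 to 1.25.

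Protein-coding genes were ranked further after their values had been seen. The next were Ifi27l2a and Bst2, both interferon-inducible. Ifi27l2a was at 3.14, 3.84 and 7.73 FPKM in the 6 and 0.789, 1.78 and 3.07 FPKM in the 18. Bst2 was at 6.56, 9.81 and 11.8 FPKM in the 6 and 2.64, 4.19 and 5.82 FPKM in the 18. Gja4, the arterial connexin 37, was at 3.31, 3.97 and 5.14 FPKM in the 6 and 1.25, 1.83 and 2.35 FPKM in the 18. The class II histocompatibility genes H2-Eb1 and H2-Aa differed by 1.06 and 1.03, Crip1 by 1.13 and Trf, the transferrin gene expressed by oligodendrocytes, by 1.04.

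Among the genes named for negative differences, all of the 10 lowest had a mean below 1 FPKM in the 6 libraries, at most 0.297 FPKM. They passed the mean of at least 1 FPKM only through the 18 libraries. The sizes of negative differences are therefore not set against those of the higher genes. Sacm1l (chr9:123529759-123592600, plus strand), which encodes a phosphoinositide phosphatase of the endoplasmic reticulum, was at 0.139, 0.222 and 0.288 FPKM (lowest, median and highest) in the 6 libraries and 3.58, 5.42 and 7.70 FPKM in the 18, a difference of -4.07 ± 0.14 (SE) where genes of its length and GC content had a median of -0.32. Its fragments numbered at most 19 in any of the 6 libraries and at least 238 in each of the 18. Sstr4 (chr2:148395344-148396767, plus strand), a somatostatin receptor encoded in 1 exon, was at 0.0409, 0.247 and 0.330 FPKM in the 6 and 3.53, 4.33 and 5.72 FPKM in the 18, a difference of -3.90 ± 0.16 (SE), against a class median of 0.58. Both genes had few fragments in the 6 libraries, at most 19 and 12. They were chosen as the lowest differences, so that they lie below their class medians restates the choice.

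The others of the 10 lowest were noncoding. B230209E15Rik, a long noncoding RNA, was at 0.223, 0.284 and 0.425 FPKM in the 6 and 6.47, 9.27 and 11.4 FPKM in the 18. The remaining 7 of the 10 lowest were Gm29237, Gm44954, Gm17193, Gm37592, Gm42979, Gm18609 and Gm44199, all noncoding or pseudogenes, and 5 of them had 0 fragments in at least 1 of the 6 libraries, for which a fold change has no fixed value. Ranked after their values had been seen, the next protein-coding genes included Fam120c, Klhl34, Usp33, Gpam, Pcdhac2, Zkscan16 and Nr2c2, with differences of -3.82 to -3.47. Klhl34 was at 0.485, 1.34 and 1.86 FPKM in the 6 and 12.9, 16.3 and 18.7 FPKM in the 18. Gpam, a glycerol-phosphate acyltransferase of lipid synthesis, was at 0.326, 0.774 and 1.0 FPKM in the 6 and 8.43, 9.53 and 11.3 FPKM in the 18. Usp33, a deubiquitinase, was at 0.205, 0.279 and 0.371 FPKM in the 6 and 3.62, 4.92 and 6.66 FPKM in the 18, and Nr2c2, an orphan nuclear receptor, at 0.123, 0.153 and 0.186 FPKM in the 6 and 2.18, 2.69 and 3.35 FPKM in the 18. In each case the highest of the 6 values lay below the lowest of the 18, which the choice of genes without overlap requires.

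**Figure D5:**
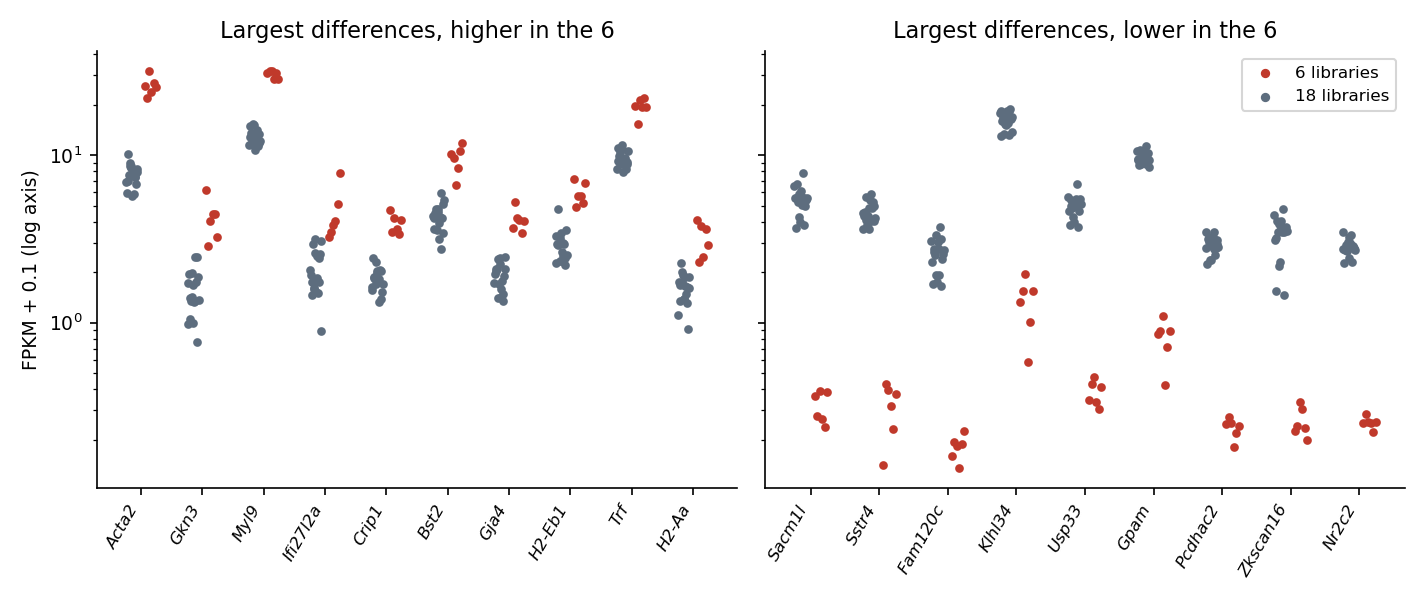
FPKM + 0.1 (log axis) in each of the 24 libraries for the 10 protein-coding genes with the largest positive differences (left) and 9 of those with the largest negative differences (right) among genes without overlap; red points are the 6 libraries and grey points the 18. No range overlaps, because only genes without overlap were ranked, and most of the lower genes lie below 1 on this axis in the 6 libraries.

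The first 90 coding bases of 2 genes from each end are shown, from the GENCODE M21 transcripts of GRCm38, in the direction of transcription and with G and C in capitals, because GC content went with the differences among expressed nuclear protein-coding genes.
Acta2: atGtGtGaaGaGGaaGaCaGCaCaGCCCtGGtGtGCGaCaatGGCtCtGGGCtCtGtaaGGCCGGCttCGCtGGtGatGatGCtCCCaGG
Gkn3: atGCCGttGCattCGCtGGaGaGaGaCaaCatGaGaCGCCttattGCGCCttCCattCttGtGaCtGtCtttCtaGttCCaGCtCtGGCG
Sacm1l: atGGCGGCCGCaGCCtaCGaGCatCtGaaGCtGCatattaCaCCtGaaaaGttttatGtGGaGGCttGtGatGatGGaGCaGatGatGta
Sstr4: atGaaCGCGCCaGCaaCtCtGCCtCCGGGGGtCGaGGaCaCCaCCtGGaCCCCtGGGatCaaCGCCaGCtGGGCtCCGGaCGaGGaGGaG
Of these bases 53, 46, 43 and 61 are G or C, and the whole transcripts hold 49.6%, 50.8%, 40.4% and 60.6%. Sacm1l was of low GC content, as were many genes below without overlap. Sstr4 had the highest GC content of the 4 and was still among the lowest differences. Acta2 and Gkn3, with large positive differences, lay near the median of 50.8% GC of protein-coding genes with a mean of at least 1 FPKM.

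As a group, the 193 genes below -2 were short, and so were the 75 genes above 1. The 75 had a median length of 480 bases, 28 were protein-coding, and 29.3% overlapped another listed gene on the same strand. A gene near 0 in the 6 can enter the 193 through the 18 alone. The 193 had a median length of 730.0 bases and 48.2% GC, against 3995 bases and 50.6% GC for all 13649 genes with a mean of at least 1 FPKM. Of the 193, 69 were protein-coding, 65 small RNA genes, 33 long noncoding and 25 pseudogenes. The 69 protein-coding genes had a median length of 4719 bases, close to the 4383 bases of all protein-coding genes, and 48.2% GC. Of the 193, 45.1% overlapped another listed gene on the same strand, against 23.4% of all, and 44.0% overlapped one on the other strand, against 42.4%. Small RNA genes were 65 of the 193 but 202 of the 13649. The overlap shares were not split by biotype, so they may reflect this make-up. Whether the authors' counting used the strand, or how it treated overlapping genes, is not given in the sources used here, and its part in these differences was not tested.

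The set difference could be seen in each treatment group. Its sign was positive in all 4 groups for 5265 of the 13649 genes (38.6%) and negative in all 4 for 5882 (43.1%). The ribosomal protein list had a median difference of 0.75 in the vehicle group, 0.63 with angiotensin II, 0.72 in vehicle + amnion epithelial cells, and 0.71 where angiotensin II was combined with the cells. The channel list had -0.69, -0.53, -0.69 and -0.63 in the same order. Immediate early genes had no common direction, with medians of 0.71, -0.39, -0.19 and 0.09. In 2 of the groups this difference rests on 1 library of high sum.

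Whether the set difference depended on treatment was tested by an F test of the interaction in limma, which does not use the mean difference between the sets. It was called for 7 of 27286 genes (0.0257%), with 2018 at an unadjusted p-value under 0.05. These were Mir7220, Snora17, Gm15217, Gm11899, Gpam, Klhl29 and Gm14584. Gpam differed by -3.44 with vehicle, -3.16 with angiotensin II, -3.58 with angiotensin II + amnion epithelial cells and -4.54 with vehicle + amnion epithelial cells (adjusted p = 0.0349 by limma). Klhl29 differed by -0.64, -0.72, -0.33 and -0.90 in the same order. Both were negative in all 4 groups. Their values with angiotensin II and with vehicle + amnion epithelial cells each rest on 1 library of high sum. The count varied widely with the processing. It was 18 with a pseudocount of 1, 94 with a pseudocount of 0.01 and 677 without a filter on low values, and 0 with voom, a weighted limma fit on the recovered fragments, in which 1798 genes had an unadjusted p-value under 0.05. It was 22 without angiotensin II + amnion epithelial cells replicate 5, 16 without vehicle replicate 6 and 11 without angiotensin II + amnion epithelial cells replicate 2. Without vehicle + amnion epithelial cells replicate 6 it was 0 by limma, with 1712 genes at an unadjusted p-value under 0.05, but that group then holds no library of high sum and only 3 groups are compared.

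Within the 18 libraries, the ribosomal protein and mitochondrial shares of fragments were compared, since these samples share 1 range of sums. The mitochondrial share ran from 4.79% to 5.75% and the ribosomal protein share from 1.26% to 1.53%. Their correlation was r = 0.302 (permutation p = 0.222) and rho = 0.255 (permutation p = 0.305) over 18 libraries, with r = 0.374 without the 2 libraries farthest from the median mitochondrial share. With shares of the FPKM sum in place of fragments, r was -0.126 (permutation p = 0.618) and rho -0.0609 (permutation p = 0.811), so the sign depends on the scale. It was 1 relation, so adjusted values are the same. The ribosomal protein shares of the 6 libraries, at 2.06, 2.12 and 2.21%, lay above all of the 18.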

How the data were processed

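The authors deposited 1 table of FPKM values for 54532 genes and 24 libraries, with the gene lengths they used. According to the study's methods, poly-A RNA was sequenced and reads were mapped to the Ensembl mouse genome, and the submitters' processing notes name GRCm38 and DESeq 1.10.1. The aligner, the counter and the use of strand are not given in the sources used here. Fragments were recovered from the steps of FPKM multiplied by length, of which 100.0% were whole within 0.1. Recovered totals of 16536449 to 25308700 fragments per library set the precision, as counting error only.

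FPKM were summed over all genes per library, and libraries above 320000 formed the set of 6. From the deposited FPKM, log2(FPKM + 0.1) of genes above 0 in at least 6 of 24 libraries was fitted with limma 3.58.1 (R 4.3.3) with treatment group and set as terms, eBayes with trend, and Benjamini-Hochberg adjustment. This pseudocount understates the change of low genes. Interaction of set and treatment was tested by F test, which in the weighted voom fit is approximate and depends on the reference group. Depth was compared by an exact permutation test and the 2 shares by 100000 permutations. Exons, GC content, coding and UTR lengths came from GENCODE M21, in which 54495 of 54532 identifiers were found and 53585 have the same coordinates. The scripts were tested on simulated data.

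Genes were named by rule: the 10 highest and 10 lowest differences without overlap at a mean of at least 1 FPKM and a length of at least 200 bases, the 10 largest shares of the difference in sums, the 2 members of highest level and those at both ends of each function list, and the member of highest level of each marker list. Further list members and protein-coding genes in the text, such as Gad2, Nlgn1, Scn1a and Ifi27l2a, were chosen after their values were seen. Some genes that the rule names are not reported here. The members, lists and rule were chosen with earlier results of these data known, and equal FPKM sums were added as an alternative after seeing the data. The labels number the samples without naming the animals, so p-values measure only the spread between these samples. Alternatives were pseudocounts of 1 and 0.01, no filter, a mean of at least 1 FPKM, median ratio scaling, nuclear fragments as the total, voom, no covariate, a replicate block and each library left out in turn.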

Additional observations from a re-analysis of the deposited data

Results flagged for a closer look

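Single libraries stood apart within a treatment group by Dixon's test. The sum of FPKM did so for angiotensin II replicate 5 (340431) and vehicle + amnion epithelial cells replicate 6 (348597), the only libraries of high sum in their groups. The share of ribosomal protein fragments did so for the same libraries (2.11% and 2.13%), and the mitochondrial share for the latter (6.59%). The depth of vehicle replicate 6, 25308700 fragments, lay above the rest of its group. Because the 6 libraries were chosen by the sum, the sums restate the choice, and the shares are given as descriptions.

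Within the 6 libraries, single values stood apart for 7 genes. Gm29237 was at 0.260 FPKM in vehicle replicate 5, Gm44954 at 0.173 FPKM in vehicle replicate 6 and Gm37592 at 0.161 FPKM in angiotensin II replicate 5, each against 0 in the other 5, so that 1 or 2 fragments decide them. Fth1, the ferritin heavy chain, was at 2851 FPKM in vehicle replicate 6, and Ptgds at 1306 FPKM in vehicle replicate 5. S100a9 was at 17.5 FPKM in angiotensin II + amnion epithelial cells replicate 6 and Gh at 12.1 FPKM in angiotensin II + amnion epithelial cells replicate 5. In all, 108 groups of values were examined, of which chance flags about 1 in 20.

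The set difference was called as varying with treatment for 7 genes by the F test in limma, a count that ran from 0 with voom to 677 without a filter. Adjusted p-values were 0.0110 for Mir7220, 0.0141 for Snora17, 0.0349 for Gm15217, Gm11899, Gpam and Klhl29, and 0.0473 for Gm14584. Mir7220, a gene of 60 bases, differed by -7.02 with vehicle + amnion epithelial cells and by -0.84 with vehicle. The former value rests on replicate 6, the only library of high sum in its group. Gm15217 and Gm11899 had means of 0.0288 and 0.0573 FPKM.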

How the results depend on the processing

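With equal FPKM sums, genes higher in the 6 libraries numbered 3212 and their share of all calls went from 41.8% to 21.9%, and the list medians became 0.451 for ribosomal proteins, 0.216 for mitochondrially encoded proteins, 0.421 for respiratory subunits and -0.913 for channels. Chd3 (-0.15), Smarca4 (-0.15), Mirg (-0.081), Cul9 (-0.17), Hsp90ab1 (-0.10), Neurod2 (-0.042) and Hap1 (-0.046) turned sign. With a replicate block, 3655 genes were higher and 5359 lower, and the medians were 0.555, 0.508 and -0.561 for ribosomal, respiratory and channel genes. The replicate numbers do not pair the samples: the correlation of deviations within 36 same-numbered pairs ran from -0.224 to 0.797, and from -0.278 to 0.118 once the set was removed, with 0 libraries closest to their own number. The median of genes under 1000 bases minus that of genes of 4000 bases or more was 0.213, and 0.14 with a pseudocount of 1, 0.72 at a mean of at least 1 FPKM and 0.337 with equal sums. Channels had -0.557 with a pseudocount of 1. Genes with an interaction numbered 18 and 94 with pseudocounts of 1 and 0.01, 677 without a filter, 11 with median ratio scaling, 2 with equal sums, 2 with the block and 0 with voom. Leaving out 1 library in turn gave 5694 to 6095 higher and 7957 to 8444 lower genes, 0 to 22 interactions, ribosomal medians of 0.707 to 0.733, mitochondrial of 0.470 to 0.517, respiratory of 0.671 to 0.705, channel of -0.667 to -0.624 and length contrasts of 0.198 to 0.223. Without angiotensin II replicate 5 or vehicle + amnion epithelial cells replicate 6, the groups' only libraries of high sum, the interaction was over 3 groups and numbered 7 and 0. Each of 16 of the 22 other libraries, left out, moved this count by over 1.5 times, 13 of them downwards. Depth differed by -228136 to 1526314 fragments (exact permutation p = 0.162 to 0.808). The cause of these changes was not tested.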
